A study of Mus musculus with 27 samples.

Results

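miR-298 and miR-296 are neighbouring mouse miRNAs of the imprinted Gnas region on chromosome 2. They were followed here as every mature miRNA whose name begins with miR-296- or miR-298-, which gave 4 of the 844 mature miRNAs listed in the series: miR-298-5p, miR-298-3p, miR-296-5p and miR-296-3p. Gnas encodes the stimulatory G protein alpha subunit that couples many hormone and neuropeptide receptors to cyclic AMP. Its region is imprinted, so that several of its transcripts come from 1 parental allele, among them the antisense RNA Nespas. A miRNA hairpin is cut into a duplex with a 5p and a 3p arm, either of which can enter an Argonaute protein, and the seed of the loaded arm (bases 2 to 8) pairs with target mRNAs. In other cell systems miR-298-5p is known to repress Bace1, the beta-secretase, and miR-296-5p is known from endothelial cells of growing vessels.

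The series holds 27 small-RNA libraries, all labelled C57BL/6. Tissue of the suprachiasmatic nucleus (SCN, the central circadian clock of the brain), hypothalamus and cortex gave 2 libraries each. SCN tissue was also sampled at 11 zeitgeber times (ZT), 4 h apart, with ZT2 the first, ZT42 the last and a single library at each, and at CT18 (circadian time 18 h) 2 libraries labelled CTRL and 2 labelled LP, a term the labels do not spell out in a series that speaks of light-responsive miRNAs. Neurons of 3 SCN subtypes completed the series with 2 libraries each: AVP (vasopressin), VIP (vasoactive intestinal peptide) and CCK (cholecystokinin). The labels give no age or sex, no genotype beyond the strain, no light schedule, and not how the neurons were collected, whether animals were pooled, or if replicates came from different animals. P-values therefore measure the spread between these libraries, which may be technical.

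The 4 mature sequences and the 2 hairpins are shown because the results turn on which hairpin, and which arm of it, was counted. In the mature sequences (RefSeq, GRCm38.p6) capitals mark the seed.
miR-298-5p: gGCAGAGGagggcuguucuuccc
miR-298-3p: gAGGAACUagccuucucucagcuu
miR-296-5p: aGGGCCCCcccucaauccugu
miR-296-3p: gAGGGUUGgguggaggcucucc
In the hairpins capitals mark the 5p arm and then the 3p arm.
Mir298: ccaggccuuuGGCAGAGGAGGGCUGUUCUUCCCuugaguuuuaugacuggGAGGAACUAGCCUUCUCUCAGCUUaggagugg
Mir296: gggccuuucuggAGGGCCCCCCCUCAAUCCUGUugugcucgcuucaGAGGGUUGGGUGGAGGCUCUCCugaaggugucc

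The 4 seeds differ from each other, and none of them is shared with any other of the 1679 mature mouse miRNAs in that table. Each of the 4 mature sequences has 1 locus there. GC content was 65.2% in miR-298-5p, 50% in miR-298-3p, 66.7% in miR-296-5p and 68.2% in miR-296-3p, where the median mature miRNA has 52.2%. Mir298 (82 nt) lies at chr2:174267504-174267585 and Mir296 (79 nt) at chr2:174267047-174267125, both on the minus strand of GRCm38, with 378 bp between them. GENCODE M21 places both outside every annotated exon and intron of other genes. The nearest longer gene on the same strand is Nespas (chr2:174281237-174295436), whose annotated 3′ end lies 13652 bp from Mir298. Gnas itself runs on the opposite strand, from 174284320 to 174346744.

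Libraries held an estimated 469808 to 5133902 miRNA reads, and the neuron libraries of AVP (537185 and 908478) and CCK (469808 and 487356) were the shallowest. Levels are given in CPM, the deposited value divided by 10. The hypothalamic markers miR-7a-5p, miR-7b-5p and miR-375-3p together held 48364 to 51654 CPM in SCN tissue and 79951 to 81383 in hypothalamus, against 4242 to 5316 in cortex. They held 2140 to 5824 CPM in the 4 CT18 libraries, a range that overlaps cortex although these are labelled SCN, and 11952 to 52794 along the time course. This sum is carried by miR-7a-5p and miR-7b-5p, and miR-375-3p alone ran otherwise, at 106 to 191 CPM in the CT18 libraries, 88.4 to 92.6 in SCN tissue and 12.1 to 62.2 along the time course, with its lowest tissue values in cortex (9.5 CPM in replicate 1). The endothelial marker miR-126-3p had 8.1 to 14.1 CPM at CT18, 1078.7 and 1223.8 in SCN tissue and 3037.0 and 3540.9 in cortex. Along the time course it ran from 571.0 to 1396.0. The other arm of that hairpin, miR-126-5p, had 281.5 to 322.8 CPM at CT18, 140.8 and 99.3 in SCN tissue and 644.6 and 700.3 in cortex. The muscle marker miR-1a-3p had 0 to 1.3 CPM at CT18 and 408.7 and 358.1 in cortex. The cause was not tested. In the neuron libraries miR-375-3p was at 0 in VIP and CCK, and the oligodendrocyte markers miR-219-5p and miR-219-2-3p were at 0 in all 6, whereas the third, miR-338-3p, had 595 and 242 CPM in VIP, 443 and 509 in CCK and 134.3 and 20.9 in AVP, beside 387 and 516 in SCN tissue.

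miR-298-5p was the predominant arm in every library; it was lowest in cortex and highest in AVP neurons. SCN tissue had 3196 and 2698 CPM, hypothalamus 1448 and 1482, and cortex 78.1 and 75. AVP neurons had 10458 and 8541 CPM, CCK neurons 4080 and 3133, and VIP neurons 845 and 355. These levels put miR-298-5p at rank 12 of 215 and 15 of 265 listed miRNAs in the AVP libraries, 42 and 44 in SCN tissue, 62 and 81 in VIP neurons, and 189 and 192 in cortex. The CT18 libraries had 940 and 1201 CPM (CTRL) and 1078 and 1202 (LP), and the 11 times ranged from 1029 to 1944 with a median of 1541.

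Ordered by mean, miR-298-5p rose from cortex (76.6 CPM) through VIP neurons (600), CTRL (1071), LP (1140), hypothalamus (1465), the time course (1498), SCN tissue (2947) and CCK neurons (3606) to AVP neurons (9500). In this order the libraries of neighbours overlapped between CTRL and LP, between hypothalamus and the time course, and between SCN tissue and CCK neurons. The other neighbours did not overlap. Most of these neighbours come from different parts of the series, which may be different batches, and no test was made between parts.

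**Figure D1:**
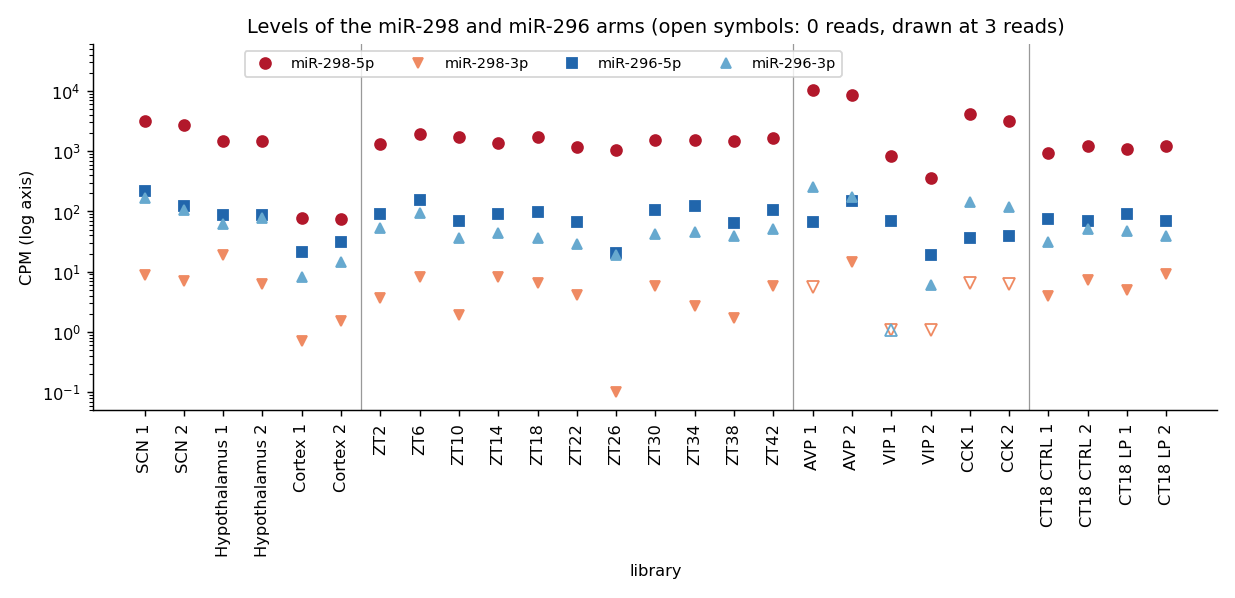
Level of each arm in CPM (log axis) in each of the 27 libraries, with 1 symbol per arm and vertical lines between the 4 parts of the series; open symbols are libraries with 0 reads, drawn at the level of 3 reads. miR-298-5p is the highest arm everywhere, from 75 CPM in cortex to 10458 in AVP neurons.

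Both arms of miR-296 lay below miR-298-5p in every library, with the smallest gap in cortex, where miR-298-5p was 3.72 and 2.44 times miR-296-5p. miR-296-5p had 217 and 124 CPM in SCN tissue, 86.3 and 88.7 in hypothalamus and 21 and 30.8 in cortex. miR-296-3p had 168 and 105 CPM in SCN tissue, 62.2 and 76.6 in hypothalamus and 8.30 and 14.3 in cortex. Both arms followed the same order of tissues without overlap.

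Among neurons the arms of miR-296 parted. miR-296-3p had 256 and 173 CPM in AVP, 143 and 117 in CCK, and 0 and 6.10 in VIP neurons, where the 2 libraries held 0 and 17 reads. A count of 0 in VIP replicate 1 allows up to 1.07 CPM (3 reads, counting error only), and this library was among the deeper ones (2812316 reads). miR-296-5p had 67.1 and 148 CPM in AVP, 36.2 and 39 in CCK, and 70.4 and 18.6 in VIP neurons, so its 3 neuron types were much closer and VIP overlapped both others.

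miR-298-3p, the minor arm of its hairpin, was listed in 22 of 27 libraries with 345 reads in all. It had 8.90 and 6.90 CPM in SCN tissue, 18.8 and 6.30 in hypothalamus and 0.700 and 1.5 in cortex. AVP replicate 2 had 14.3 CPM, and the other 5 neuron libraries had 0 reads, which allows up to 5.60 CPM in AVP replicate 1, 1.07 and 1.08 in VIP, and 6.39 and 6.16 in CCK. The limits for CCK lie just under the levels in SCN tissue, so little can be said of this arm there at this depth. It was below the filter on low values in each part and was not tested, while the other 3 arms passed that filter in all parts.

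The SCN was compared with hypothalamus to ask what sets the clock nucleus apart from its surroundings. The level of miR-298-5p was 2.01-fold higher in SCN tissue, a log2 difference of 1.0 ± 0.12 (SE) that passed limma's test (adjusted p = 8.94e-05), with both SCN libraries above both hypothalamus libraries. miR-296-5p was 1.95-fold higher (0.91 ± 0.28, limma adjusted p = 0.0157) and miR-296-3p 1.97-fold (0.94 ± 0.31, limma adjusted p = 0.0214). In this comparison 28% of the 378 miRNAs tested were called higher in the SCN and 42.9% lower, 35.4% had both SCN libraries above both of hypothalamus, and the median miRNA stood at −0.29 on the log2 scale. Some marker lists of other cell types differed more between these tissues, without overlap and with no marker at 0: endothelium and mural cells held 3850 to 3863 CPM in the SCN and 10880 to 11612 in hypothalamus, oligodendrocytes 829 to 1288 and 3247 to 3826, and muscle 42.6 to 67.1 and 311 to 314. Forebrain neuron sums (33171 to 38503 and 48857 to 51071) differed less. So did microglia and leukocytes (1894.5 to 2075 and 2472 to 2678), though miR-150-5p was higher in the SCN and miR-142-3p was at 0 there. Erythrocyte sums overlapped (482 to 581 and 537 to 862), but the markers in them parted. miR-451a had 33.8 and 25.6 CPM in the SCN and 149.4 and 341.2 in hypothalamus. miR-144-3p had 3.1 and 2.7 CPM in the SCN and 95.9 and 146.9 in hypothalamus. The third, miR-486-5p, which made up most of the SCN sums, ran the other way and was higher in the SCN. Sums of choroid plexus and ciliated-cell markers (8603 to 8865 and 7209 to 7417) and liver miR-122-5p (21.8 to 25.9 and 13.9 to 17.9) were higher in the SCN. The part of these lists in the result was not tested. SCN replicate 1 weighed on the miR-296 arms: without it miR-296-3p stood at 0.60 (limma adjusted p = 0.166) and miR-296-5p at 0.50 (0.124), and without hypothalamus replicate 1 miR-296-3p lost its call as well (0.79, limma adjusted p = 0.0677).

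Against cortex the arms moved by unequal amounts. The level of miR-298-5p was 38.5-fold higher in SCN tissue, a log2 difference of 5.26 ± 0.12 (SE, limma, adjusted p = 3.19e-09), and it had the smallest p of the 378 miRNAs tested. miR-296-3p was 12.1-fold higher (3.59 ± 0.31, limma adjusted p = 4.24e-06) and miR-296-5p 6.58-fold (2.68 ± 0.28, limma adjusted p = 1.39e-05). Their 95% intervals, 4.98 to 5.54 for miR-298-5p, 2.90 to 4.29 for miR-296-3p and 2.06 to 3.31 for miR-296-5p, separate miR-298-5p from both arms of miR-296. Among all miRNAs tested 41.3% were called higher and 38.9% lower in the SCN, 46.8% had both SCN libraries above both of cortex, and the median was 0.06. miR-298-3p, not tested, had a mean of 7.90 ± 1.41 CPM (SD, n = 2) in the SCN and 1.10 ± 0.566 in cortex.

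Hypothalamus differed from cortex in the same direction, with miR-298-5p 19.1-fold (log2 difference 4.26 ± 0.12, limma adjusted p = 1.09e-08), miR-296-3p 6.14-fold (2.65 ± 0.31, limma adjusted p = 7.69e-05) and miR-296-5p 3.38-fold higher (1.78 ± 0.28, limma adjusted p = 0.00048). Here 41.8% of 378 miRNAs were called higher in hypothalamus and 16.4% lower, 59% had both of its libraries above both of cortex, and the median was 0.41. Calls were 158 higher and 62 lower, and with median-ratio scaling, where the median was −0.01, 96 higher and 104 lower. The 3 arms kept their direction and call there. In these bulk tissues fewer cells of a type and less RNA per cell cannot be told apart. The summed level of choroid plexus and ciliated-cell markers (5 of 5 found) had the same order of tissues as the arms, at 8603 to 8865 CPM in the SCN, 7209 to 7417 in hypothalamus and 1174 to 1329 in cortex. miR-449a-5p was at 0 in SCN tissue and miR-34b-5p at 0 in cortex. The sum is mostly miR-204-5p, and miR-34c-5p was higher in hypothalamus (2311 and 1664 CPM) than in the SCN (1276 and 811). Forebrain neuron markers (5 of 5 found, none at 0) had summed levels in the opposite order, at 33171 to 38503, 48857 to 51071 and 149802 to 156750 CPM, though miR-137-3p was slightly higher in hypothalamus (249 and 219) than in cortex (213 and 202). The part of these markers in the result was not tested.

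**Figure D2:**
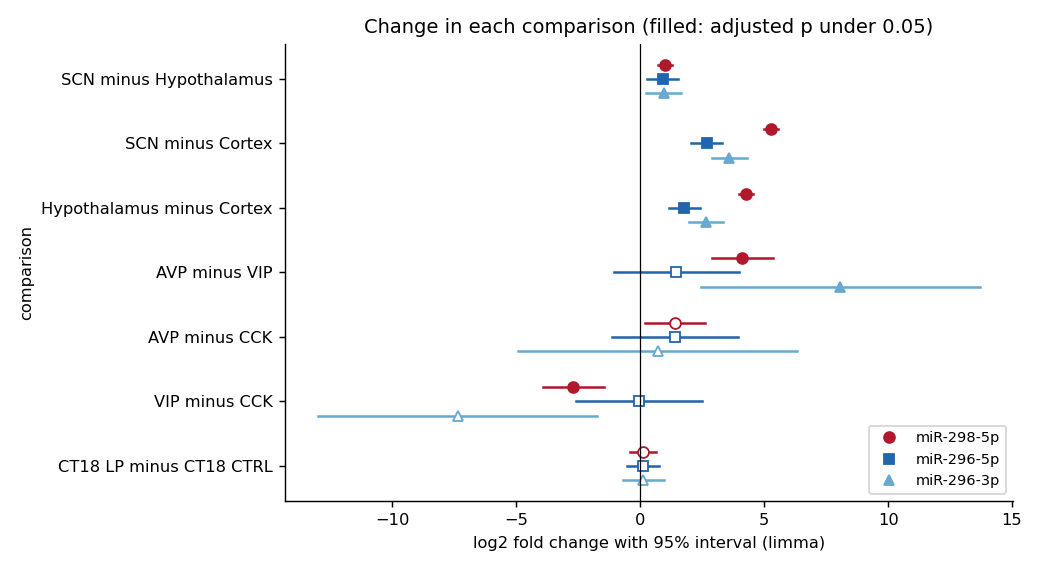
log2 fold change (first group minus second) with its 95% interval from limma for the 3 arms tested, by comparison; filled symbols passed an adjusted p of 0.05. The 9 tissue values are all above 0 and filled, whereas among neurons only miR-298-5p and miR-296-3p in AVP against VIP, and miR-298-5p in VIP against CCK, are filled.

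The 3 neuron types were compared to ask how miRNAs differ among SCN neurons. miR-298-5p was 15.8-fold higher in AVP than in VIP neurons (log2 difference 4.11 ± 0.46 SE by limma, adjusted p = 0.0065) and 6.01-fold lower in VIP than in CCK neurons (−2.71 ± 0.46, limma adjusted p = 0.0203). Of 305 miRNAs tested, 18% were called higher and 14.8% lower in AVP than VIP (55 higher and 45 lower, or 35 and 62 with median-ratio scaling) and 21.6% lower and 8.2% higher in VIP than CCK (66 lower and 25 higher, or 31 and 38). Libraries did not overlap, in the direction of miR-298-5p, for 35.1% of miRNAs in the first comparison and 42.6% in the second. The median miRNA stood at −0.93 in VIP against CCK, and at −0.17 with median-ratio scaling, where miR-298-5p stood at −1.89 (limma adjusted p = 0.0369). Without VIP replicate 2 the log2 differences were 3.48 (AVP against VIP, limma adjusted p = 0.0112) and −2.08 (VIP against CCK, 0.0333), and without VIP replicate 1 they were 4.74 (0.0046) and −3.33 (0.0135). With median-ratio scaling the first was 3.46 (limma adjusted p = 0.00521). The second call was lost without CCK replicate 1 (−2.52, limma adjusted p = 0.137) or CCK replicate 2 (−2.90, 0.0968), where 2 and 1 miRNAs were called in all.

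AVP neurons also held 2.63-fold more miR-298-5p than CCK neurons (9500 ± 1356 against 3606 ± 670 CPM, SD, n = 2), with no overlap, but the difference did not pass (log2 difference 1.4 ± 0.46 SE by limma, adjusted p = 0.127). Without VIP replicate 1 or VIP replicate 2 the log2 difference stayed at 1.4, and its call changed. The VIP libraries enter through the shared estimate of the spread and through the filter, with 284 and 288 miRNAs then tested in place of 305. In this comparison 2.62% of 305 miRNAs were called higher and 14.1% lower in AVP (8 higher and 43 lower, or 15 and 43 with median-ratio scaling), and 22.3% had both AVP libraries above both CCK libraries.

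miR-296-3p was 70.3-fold higher in AVP than in VIP neurons by mean CPM (214 ± 58.3 against 3.05 ± 4.31, SD, n = 2) and passed narrowly (limma adjusted p = 0.0463). The call was lost without AVP replicate 1 (adjusted p = 0.138), AVP replicate 2 (0.103), CCK replicate 1 (0.0808) or CCK replicate 2 (0.0824), in limma fits, and with the replicate number as a block (0.067). CCK neurons held 42.6-fold more miR-296-3p than VIP neurons (limma adjusted p = 0.0649), which did not pass. The log2 difference of VIP against CCK was −4.38 without VIP replicate 1 and −10.3 without VIP replicate 2, and its call changed in both fits. AVP and CCK neurons differed by 0.70 ± 2.13 on the log2 scale (limma adjusted p = 0.909), with an interval of −4.93 to 6.33. The fitted log2 fold changes, 8.06 ± 2.13 and −7.36 ± 2.13, depend on the pseudocount because 1 VIP library was at 0.

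miR-296-5p passed in none of the 3 neuron comparisons, with limma adjusted p of 0.312 (AVP against VIP), 0.432 (AVP against CCK) and 0.99 (VIP against CCK). Its 95% interval in VIP against CCK, −2.58 to 2.48 on the log2 scale, leaves large differences in either direction possible. Beside these values, choroid plexus and ciliated-cell markers held 83.8 to 290 CPM in AVP, 7564 to 9453 in VIP and 1500 to 1914 in CCK neurons. The VIP sum was almost wholly miR-204-5p (9453 and 7563 CPM), and miR-34c-5p ran the other way, at 0 and 0.7 CPM in VIP, 7.4 and 208 in AVP and 194 and 255 in CCK, with miR-34b-3p, miR-34b-5p and miR-449a-5p at 0 in AVP and VIP and miR-34b-5p and miR-449a-5p at 0 in CCK. Forebrain neuron markers held 2867 to 4011 CPM in AVP, with miR-137-3p and miR-138-5p at 0, 13165 to 17644 in VIP and 10677 to 12315 in CCK, mostly miR-124-3p. In the opposite order miR-9-5p had 233 and 453.3 CPM in AVP, 115 and 214 in CCK and 10.3 and 39.1 in VIP. The part of these markers in the result was not tested.

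The balance of the 2 miR-296 arms does not depend on library scaling, since both are read in the same library. miR-296-3p made up 43.8% (95% Wilson interval 40.5 to 47.1) and 45.7% (42.4 to 49.2) of both arms in the SCN libraries, 41.9% and 46.3% in hypothalamus, and 28.4% (19.4 to 39.5) and 31.8% (23.02 to 42.1) in cortex. In AVP neurons the share was 79.2% (72.5 to 84.6) and 54% (48.2 to 59.6), and in CCK neurons 79.8% (70 to 87) and 75% (64.2 to 83.4). VIP neurons had 0 of 198 reads, which allows up to 1.52%, and 24.6% (16 to 36). The 3p arm outnumbered the 5p arm in 4 of 27 libraries, those of AVP and CCK neurons, and the 5p arm was ahead in the other 23. Over the 21 tissue, time course and CT18 libraries the share of miR-296-3p ran from 26.9% to 48.3%. Intervals here cover counting error only, and the counts behind them were small, with 76 to 291 reads of both arms in AVP and CCK libraries.

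The arm ratio of miR-296 was tested beside that of the other miRNAs with both arms above the filter, a comparison added after the values were seen. The log2 ratio of 3p to 5p was 0.91 ± 0.20 (SE) higher in the SCN than in cortex (limma adjusted p = 0.00956), where 54.9% of 91 arm pairs were called. Without cortex replicate 1 that call was lost (0.80, limma adjusted p = 0.0525). It was 0.87 ± 0.20 higher in hypothalamus than in cortex (limma adjusted p = 0.055, 0% of 91 called and 19 at an unadjusted p under 0.05) and 0.04 ± 0.20 higher in the SCN than in hypothalamus (0.877 by limma, 48.4% called). Among neurons no difference in the ratio passed, with limma adjusted p of 0.173 for AVP against VIP (6.15% of 65 called), 0.165 for VIP against CCK (12.3% called) and 0.948 for AVP against CCK (9.23% called). VIP replicate 2 bears on the second: without it limma gave an adjusted p of 0.032. LP differed from CTRL by 0.016 ± 0.36 (limma adjusted p = 0.981), where 0% of 68 pairs were called and 1 had an unadjusted p under 0.05.

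**Figure D3:**
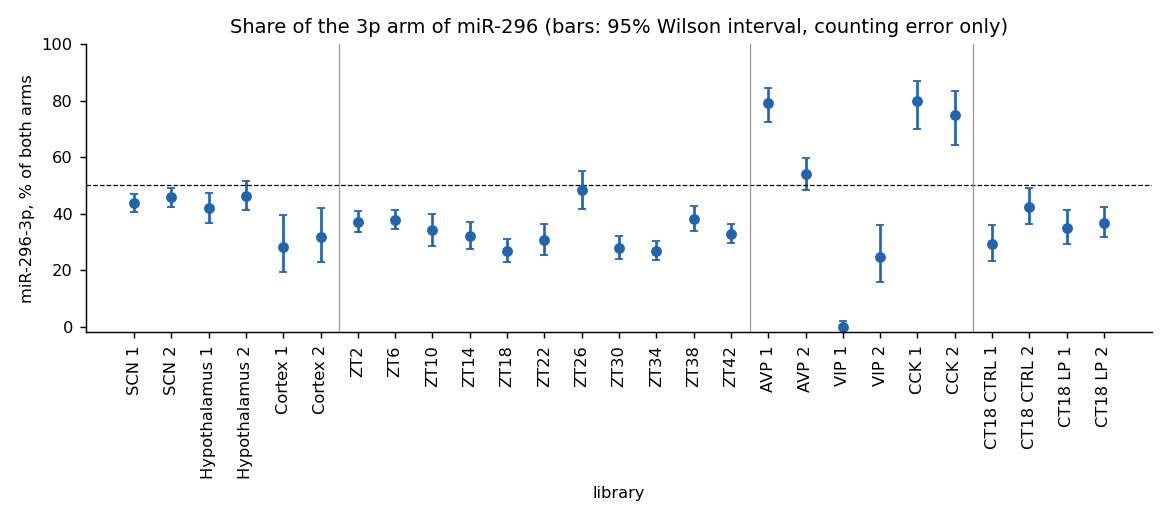
Share of miR-296-3p in the reads of both miR-296 arms (percent) in each library, with 95% Wilson intervals for counting error; the dashed line is at 50%. The 4 AVP and CCK libraries lie above the line at 54% to 79.8%, and the other 23 lie below it.

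miR-298, by contrast, came almost wholly from its 5p arm. miR-298-3p made up at most 2.01% of both arms in any library, 0.260% and 0.280% in SCN tissue, and 0 of 5606 reads in AVP replicate 1.

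The ratio of the 2 hairpins, all arms of miR-298 over all arms of miR-296, was described for each library. It was 8.33 and 11.8 in SCN tissue, 9.88 and 9.0 in hypothalamus, and 2.69 and 1.70 in cortex, the lowest values of the series. AVP neurons had 32.4 and 26.7, CCK neurons 22.8 and 20.1, and VIP neurons 12.0 and 14.4, so that neither pair overlapped another. Along the time course of SCN tissue it ran from 7.91 to 25.8, a range that holds the VIP and CCK values. The ratio was not tested. Together the 4 arms held 1.08% and 0.886% of all miRNA in the AVP libraries, 0.359% and 0.293% in SCN tissue, and 0.0108% and 0.0122% in cortex.

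**Figure D4:**
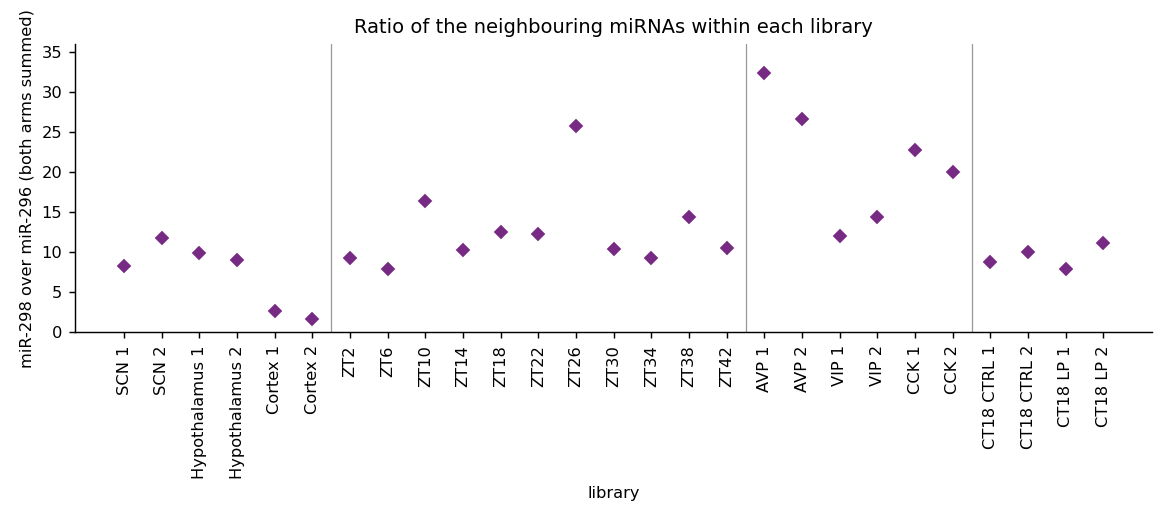
Ratio of miR-298 to miR-296, both arms summed, in each library (linear axis). The 2 cortex libraries are lowest at 1.70 and 2.69, the 2 AVP libraries are highest at 26.7 and 32.4, and ZT26 is the highest of the time course at 25.8.

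The time course asked whether any miRNA of the SCN follows the day. miR-298-5p ran from 1029 CPM at ZT26 to 1944 at ZT6, miR-296-5p from 20.6 at ZT26 to 153.6 at ZT6, and miR-296-3p from 19.3 at ZT26 to 93.0 at ZT6, so all 3 had the same lowest and highest library. A 24 h cosine fitted by limma gave a log2 amplitude of 0.21 ± 0.13 (SE) for miR-298-5p, 0.39 ± 0.28 for miR-296-5p and 0.27 ± 0.24 for miR-296-3p, each with an adjusted p of 0.95. No rhythm was called in this limma fit among 357 miRNAs (0%), and 6 had an unadjusted p under 0.05. With 1 library at each time, ZT6 and its next-day counterpart ZT30 can be set side by side: miR-298-5p had 1944 and 1541 CPM, and miR-296-3p 93.0 and 41.7.

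Over the 11 times the arms were related on the log2 scale, as 3 relations. miR-296-5p with miR-296-3p gave Pearson r = 0.858 (permutation p = 0.00143, Benjamini-Hochberg adjusted 0.00429) and Spearman rho = 0.727 (permutation p = 0.0142, adjusted 0.0425). Without ZT6 and ZT26 r was 0.601 (permutation p = 0.0894). With median-ratio scaling r was 0.761 (permutation p = 0.0154, adjusted 0.0461) and rho 0.618 (permutation p = 0.049, adjusted 0.147). There r was 0.683 without ZT26 and ZT34 (permutation p = 0.026, adjusted 0.0779). miR-298-5p with miR-296-5p gave r = 0.790 (permutation p = 0.00352, adjusted 0.00528) and rho = 0.655 (permutation p = 0.0343, adjusted 0.0514), and without ZT22 and ZT26 r was 0.441 (permutation p = 0.232). miR-298-5p with miR-296-3p gave r = 0.755 (permutation p = 0.00815, adjusted 0.00815) and rho = 0.391 (permutation p = 0.239, adjusted 0.239), and without the same 2 libraries r was 0.395 (permutation p = 0.297). Leaving out the most extreme libraries narrows the range and leaves 9 times, so it cannot decide whether these relations rest on them. With median-ratio scaling the relations of miR-298-5p with miR-296-5p and miR-296-3p fell to 0.327 and 0.247. ZT26 was the deepest library of the series, and its part in these relations beyond the values given was not tested.

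**Figure D5:**
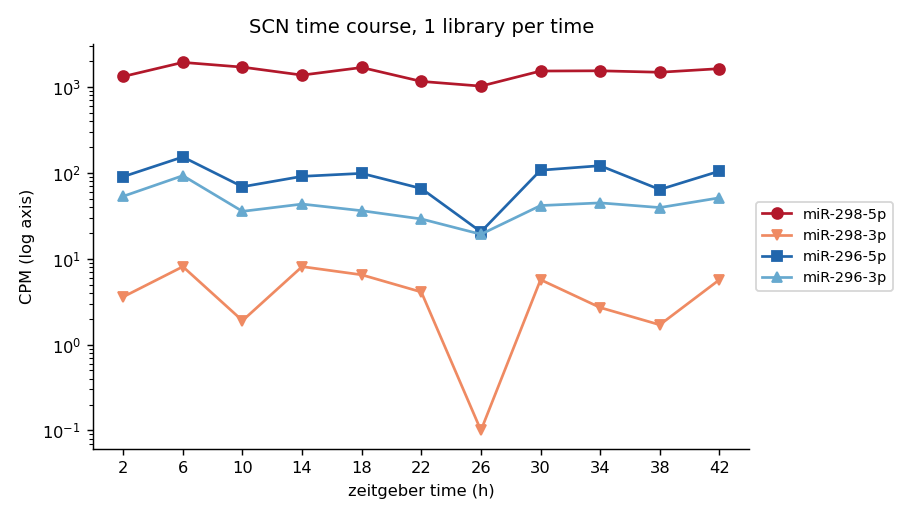
Level of miR-298-5p, miR-296-5p, miR-296-3p and miR-298-3p in CPM (log axis) against zeitgeber time in hours, 1 library per time. The first 3 are lowest at ZT26 (1029, 20.6 and 19.3 CPM) and highest at ZT6 (1944, 153.6 and 93.0 CPM). miR-298-3p lies below them, at 0.1 to 8.1 CPM.

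LP was compared with CTRL at CT18, a design that the series describes as a search for miRNAs responding to light. miR-296-5p had 76.0 and 69.4 CPM in CTRL and 89.5 and 68.4 in LP, and miR-296-3p 31.5 and 51.2 in CTRL and 48.1 and 39.8 in LP. The 2 groups overlapped for all 4 arms. By limma the log2 difference was 0.10 (95% interval −0.42 to 0.62) for miR-298-5p, 0.11 (−0.52 to 0.74) for miR-296-5p and 0.12 (−0.70 to 0.94) for miR-296-3p, each with an adjusted p of 0.992. None of 317 miRNAs was called by limma (0%), and 1 had an unadjusted p under 0.05. The interval of miR-296-3p reaches the size of its difference between SCN and hypothalamus (0.94), whereas that of miR-298-5p ends below its own (1.0).

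SCN tissue was sequenced in 3 parts of the series, and the levels in them differed. Mean miR-298-5p was 2947 ± 352 CPM (SD, n = 2) in the tissue comparison, 1498 ± 261 (SD, n = 11) along the time course and 1071 ± 184 (SD, n = 2) in CTRL at CT18. miR-296-3p was 136.5 ± 45.1, 44.3 ± 18.8 and 41.4 ± 13.9 CPM in the same order. No test was made between these parts, whose hypothalamic marker levels also differed, miR-7a-5p and miR-7b-5p being lowest and miR-375-3p highest at CT18.

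The miRNAs most like each arm over all 27 libraries were named by the highest Pearson r of log2 values among 313 others. These correlations describe libraries that share parts, cell types and depths. For miR-298-5p they were miR-224-5p (r = 0.896), miR-666-5p (0.853), miR-877-5p (0.806), miR-673-3p (0.794) and miR-433-3p (0.773), of which miR-666-5p, miR-673-3p and miR-433-3p belong to the imprinted Dlk1-Dio3 cluster. For miR-296-3p they were miR-412-5p (0.906), miR-344d-3p (0.902), miR-106b-3p (0.849), miR-140-3p (0.846) and miR-134-5p (0.843). Of these miR-412-5p and miR-134-5p belong to that cluster. For miR-296-5p they were lower, with miR-423-3p (0.685), miR-410-3p (0.684), miR-6540-5p (0.658), miR-149-5p (0.631) and miR-328-3p (0.613), of which miR-410-3p belongs to it. Dlk1-Dio3 miRNAs were 66 of the 378 tested between tissues, and their share of the 313 was not counted. By Pearson r the arms were not each other's nearest: miR-296-3p stood at place 23 for miR-298-5p (r = 0.587), miR-298-5p at place 7 for miR-296-5p (0.571), and miR-296-3p at place 47 for miR-296-5p (0.377). By rank miR-298-5p and miR-296-3p were closer (rho = 0.828) than miR-298-5p was to any of its 5 named above (rho 0.520 to 0.688). The 5 named for miR-296-3p had rho of 0.445 to 0.766, also below 0.828. This arm was at 0 in VIP replicate 1, and such a value can weigh heavily on r. For the sparse miR-298-3p, set against 314 others, the highest r were those of miR-339-5p (0.891), miR-344b-3p (0.872), miR-375-3p (0.862), miR-455-3p (0.843) and let-7e-3p (0.830). Their rho was lower, at 0.469 to 0.705, and miR-298-3p was listed in only 22 of 27 libraries.

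Other imprinted miRNAs were counted to set the Gnas-region arms beside them. Of 101 Dlk1-Dio3 miRNAs, a large cluster expressed from the maternal allele, 66 were tested between tissues. In the SCN 18 were higher and 25 lower than in hypothalamus (28% and 42.9% of all tested; median log2 fold change −0.28, all tested −0.29), and 27 were higher and 20 lower than in cortex (41.3% and 38.9% of all tested; median 0.05, all tested 0.06), so both splits lay near those of all miRNAs. Of 64 tested in neurons, 18 were higher and 5 lower in AVP than in VIP (18% and 14.8% of all tested; median 1.04, all tested 0.26), and 4 were higher and 15 lower in VIP than in CCK (8.2% and 21.6% of all tested; median −0.92, all tested −0.93). Its most abundant member in the SCN, miR-127-3p, had 122294 ± 21170 CPM in SCN tissue and 52173 ± 1230 in cortex (SD, n = 2), a smaller ratio than that of miR-298-5p.

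Of 51 miRNAs of the Sfmbt2 intron, 4 were tested between tissues and all 4 were higher in the SCN than in cortex (41.3% of all tested; median 2.53, all tested 0.06) and in hypothalamus than in cortex (41.8% of all tested; median 2.43, all tested 0.41). In the SCN 1 was higher and 1 lower than in hypothalamus (28% and 42.9% of all tested; median −0.35, all tested −0.29). Its most abundant member in the SCN, miR-669c-5p, had 91.7 ± 6.15 CPM in SCN tissue, 31.5 ± 1.27 in hypothalamus and 7.85 ± 0.495 in cortex (SD, n = 2). None of 5 tested in neurons was called by limma in any of the 3 comparisons. Of all tested, 18% were higher and 14.8% lower in AVP than in VIP, and 2.62% and 14.1% in AVP than in CCK. For VIP against CCK these shares were 8.2% and 21.6%. The 5 had a median of −4.07 in AVP against VIP (all tested 0.26) and −3.94 in AVP against CCK (all tested −0.45). In VIP against CCK it was −0.27 (all tested −0.93). Of the 2 arms of miR-335 in the Mest intron, 1 was lower and none higher in the SCN than in hypothalamus (42.9% and 28% of all tested), and miR-335-5p had 3492 ± 452 CPM in the SCN, 10306 ± 52.5 in hypothalamus and 7382 ± 561 in cortex. In the neurons, 1 of the 2 was higher in AVP than in VIP (18% of all tested) and both were lower in VIP than in CCK (21.6% of all tested). Neither of the 2 listed miRNAs of H19 and Igf2 passed the filter.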

How the data were processed

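Small RNA was sequenced in 27 mouse libraries. The deposited signal values are whole numbers per mature miRNA whose totals show a scaling to about 10000000 per library, so 10 units equal 1 CPM. Bowtie and GRCm38 are named per the submitters' processing notes; the role and version of Bowtie and the counting settings, which decide how reads go to each arm, are not given in the sources used here. The values are 1 step per library times a read number, rounded down, so reads were estimated and used only for depth, for limits of 3 reads and for 95% Wilson intervals, which cover counting error only. limma 3.58.1 (R 4.3.3, trend) was fitted on log2(value + 1) to each part of the series separately, for miRNAs at 100 or more in 2 libraries (3 along the time course), with Benjamini-Hochberg adjustment and a threshold of 0.05. Arm ratios, log2(value + 1) of 3p minus that of 5p, were fitted by limma without trend. Pairs needed each arm at 100 or more in 2 libraries. Folds compare mean CPM. Log2 differences compare means of log2(value + 1). For low miRNAs these measures can differ in size, as where a library had no reads. The models were tested on simulated data. All 4 members are named; the 5 nearest miRNAs, and the most abundant of each imprinted list, were named by rule. Members and lists were chosen with earlier results of these data known.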

Additional observations from a re-analysis of the deposited data

Results flagged for a closer look

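The 3p to 5p ratio of miR-296 differed between SCN tissue and cortex. It was 0.91 higher on the log2 scale in the SCN than in cortex (SE 0.20, limma adjusted p = 0.00956), with both SCN libraries (43.8% and 45.7% miR-296-3p) above both cortex libraries (28.4% and 31.8%). In this comparison 54.9% of 91 arm pairs were called, and miR-296 stood at place 46 of 91 by size. By limma the difference did not pass between hypothalamus and cortex (0.87, adjusted p = 0.055) or between SCN and hypothalamus (0.04, adjusted p = 0.877). Without cortex replicate 1 it stood at 0.80 (limma adjusted p = 0.0525). The cortex shares rest on 74 and 88 reads of both arms. This comparison was added after the values were seen.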

How the results depend on the processing

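Precision is limited by 2 libraries a group and by depth, most of all in AVP and CCK neurons and for miR-298-3p. Count models were not run (edgeR and DESeq2), since rounding down kept the reads from being recovered exactly. Apart from leaving out libraries, 188 recomputed values were labelled unchanged. They kept their direction and side of the threshold or, for counts of calls, moved by at most 1.5 times. Cosine amplitudes have no sign to reverse. Of the others 3 reversed, 7 lost and 5 gained a call, and 3 counts moved by over 1.5 times. With 1 library left out these numbers were 211, 11, 10, 5 and 7. Without the filter miR-296-3p stood at 0.94 (adjusted p = 0.0905) and miR-296-5p at 0.91 (0.0741) in SCN against hypothalamus, and at 8.06 for miR-296-3p in AVP against VIP (0.0591); median-ratio scaling gave 7.55 (0.068) there. In AVP against CCK quantile normalization gave 1.90 for miR-298-5p (0.0387). In VIP against CCK miR-296-5p reversed to 0.76 with median-ratio scaling and 1.49 with quantile normalization, and miR-296-3p passed with a pseudocount of 10 (−5.61, 0.0241) and the stricter filter (−7.36, 0.0449). In LP against CTRL miR-296-3p reversed to −0.030 with quantile normalization. The stricter filter called 186 miRNAs in SCN against cortex (303 as reported) and 33 in AVP against CCK (51), where fewer were tested. The hypothalamus to cortex arm ratio passed with a pseudocount of 10 (0.81, 0.0441). With median-ratio scaling r was 0.247 and 0.327 for the relations of miR-298-5p along the time course. Where no cause is given, the cause was not tested.

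With 1 library left out, log2 fold changes spanned 0.60 to 1.29 (miR-296-3p) and 0.50 to 1.31 (miR-296-5p) in SCN against hypothalamus, 5.08 to 11 (miR-296-3p) and 3.48 to 4.74 (miR-298-5p) in AVP against VIP, 1.21 to 1.59 (miR-298-5p) in AVP against CCK, and −3.33 to −2.08 (miR-298-5p), −10.3 to −4.38 (miR-296-3p) and −1.01 to 0.90 (miR-296-5p) in VIP against CCK. In LP against CTRL they spanned −0.077 to 0.28 (miR-298-5p), −0.086 to 0.30 (miR-296-5p) and −0.23 to 0.47 (miR-296-3p). The arm ratio spanned −0.094 to 0.17 (SCN against hypothalamus), 0.80 to 1.02 (SCN against cortex), −1.55 to 0.15 (AVP against CCK), −11.2 to −3.37 (VIP against CCK) and −0.40 to 0.43 (LP against CTRL). Calls numbered 0 to 69 (AVP against CCK, 0 without either CCK library and 26 without AVP replicate 1), 1 to 92 (VIP against CCK) and 0 to 21 (LP against CTRL, 21 without LP replicate 2). A lone library left in a group was assumed to vary like the other groups.

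Replicate numbers are shared between groups but nothing says that they pair samples, and deviations of same-numbered libraries correlated at −0.0891 to 0.250. With the replicate number as a block, miR-296-3p in AVP against VIP stood at 8.06 (adjusted p = 0.067), calls in VIP against CCK fell from 91 to 46, and the hypothalamus to cortex arm ratio passed (0.87, 0.0425).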
